A study of Mus musculus with 3 samples.

Results

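The genes described here are 35 interferon-stimulated genes of the mouse, taken from a fixed set of symbols. Of the 35, 33 had a row among the 32285 genes of the count matrices, and Mx1 and Mx2 were not analysed here. They were followed in single cells of the cornea and limbus, the border zone between cornea and conjunctiva. The 3 droplet libraries (10x Genomics) each came from 1 wild-type mouse. The uninjured library had no injury and no treatment. Both other mice had been exposed to nitrogen mustard (NM), an alkylating agent that damages DNA. One of them received saline (the saline library) and the other received losartan, a blocker of the angiotensin II type 1 receptor (the losartan library). Per the labels, lens, retina, iris and most of the conjunctiva were removed before digestion. The sources used here did not give the strain, age or sex, the time after injury, or the dose and route of losartan.

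Interferons are secreted proteins, and those of type I are released by cells that sense viral or damaged nucleic acid. Type I interferons bind the receptor chains Ifnar1 and Ifnar2, and the kinases Jak1 and Tyk2 then activate a complex that holds Stat2 and Irf9. That complex binds the interferon-stimulated response element (ISRE) before a large set of genes. Interferon gamma acts through Ifngr1 and Ifngr2, and its signal ends at the gamma-activated site. In the eye these genes are known best from viral keratitis, where they limit replication in epithelium and stroma.

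After filtering, 11233 uninjured, 5800 saline and 4919 losartan cells remained, with medians of 11392, 4107 and 5985 unique molecular identifiers (UMIs, counts of captured RNA molecules) per cell. Cells were clustered and named from marker genes. Epithelial-like cells numbered 9471 uninjured, 1172 saline and 1892 losartan cells, stromal fibroblast-like cells 455, 747 and 829, and macrophage-like cells 18, 658 and 405. Neutrophil-like cells numbered 2963 saline and 1368 losartan cells, and no cluster of them was found in the uninjured library. All 14 epithelial markers had UMIs in epithelial-like cells of every library, and all 14 neutrophil markers had UMIs in neutrophil-like cells of both injured libraries. The 1 cluster left unnamed, cluster 8, held 1042 uninjured cells led by Ifi202b and stayed out of every class. Its top score was for corneal epithelium, with 13 of those markers detected but 0 among its leading genes. The uninjured epithelial values below therefore leave these cells out. Libraries shared 21, 28 and 7 cell barcodes by pair. Since each group is 1 library, no difference below has a replicate check and no test between groups was possible. All intervals are 95% intervals that cover counting error only.

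Many of the members lie side by side in the genome. With GRCm38 coordinates from GENCODE, Ifit2, Ifit3, Ifit3b and Ifit1 share chr19:34550694-34650009, and Gbp5, Gbp7, Gbp3 and Gbp2 share chr3:142493978-142638008. Oas2, Oas3 and Oas1a share chr5:120730333-120907521, Oasl2 and Oasl1 share chr5:114896936-114937915, and Rsad2 and Cmpk2 share chr12:26442746-26479837. Ifit3 and Ifit3b are near copies of each other, as are several Oas and Gbp genes, so counts within these families are uncertain where reads fit more than 1 gene.

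Promoter sequences from RefSeq on GRCm38.p6 were found for 28 of the 35 members, with 34 start sites in all. Oas2, Usp18, Ifi27l2a, Rtp4, Zbp1, Mx1 and Mx2 had none there. The 250 bases before each start were searched on both strands for GAAANNGAA, the core of the ISRE, and for TTCNNNGAA, the letters of the gamma-activated site, which read the same on both strands. Matches may overlap each other. GAAANNGAA was found before 15 of 34 member start sites (44.1%) and before 2342 of 32851 start sites of all genes (7.13%). At least 2 such matches were present before 8 member start sites (23.5%) and before 0.469% of all start sites. TTCNNNGAA was found before 7 member start sites (20.6%) against 7.02% of all. These are matches of letters and not measured binding.

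The 160 bases before the start site are shown for 6 members. Isg15, Ifit1, Ifit3 and Rsad2 carry differences between classes or libraries described below, Bst2 joins both motifs, and Irf1 has only a gamma-activated site. Capitals mark the matches, and each sequence is written 5′ to 3′ on the strand of its gene. Isg15 (chr4:156200819-156200978, minus strand) has 3 overlapping ISRE cores on its own strand. Ifit1 (chr19:34640729-34640888, plus strand) and Ifit3 (chr19:34583369-34583528, plus strand) have 3 each in the reverse orientation. Rsad2 (chr12:26456453-26456612, minus strand) has 1 in the reverse orientation, and Bst2 (chr8:71537473-71537632, minus strand) has 2 that run into a gamma-activated site. The first start of Irf1 (chr11:53769854-53770013, plus strand) has 1 gamma-activated site and no ISRE core, and its other start in the table has neither.
Isg15: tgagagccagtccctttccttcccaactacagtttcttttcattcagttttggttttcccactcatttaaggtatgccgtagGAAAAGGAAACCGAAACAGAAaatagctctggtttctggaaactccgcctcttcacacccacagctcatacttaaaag
Ifit1: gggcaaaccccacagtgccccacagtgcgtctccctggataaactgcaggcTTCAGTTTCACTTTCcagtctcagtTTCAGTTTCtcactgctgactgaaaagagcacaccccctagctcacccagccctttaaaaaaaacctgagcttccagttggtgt
Ifit3: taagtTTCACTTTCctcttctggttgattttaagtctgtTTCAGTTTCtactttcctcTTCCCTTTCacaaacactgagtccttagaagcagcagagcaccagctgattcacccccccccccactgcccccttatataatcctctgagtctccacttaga
Rsad2: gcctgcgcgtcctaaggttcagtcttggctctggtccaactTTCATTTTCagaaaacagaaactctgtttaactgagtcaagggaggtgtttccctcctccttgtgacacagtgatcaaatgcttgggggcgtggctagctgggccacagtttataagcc
Bst2: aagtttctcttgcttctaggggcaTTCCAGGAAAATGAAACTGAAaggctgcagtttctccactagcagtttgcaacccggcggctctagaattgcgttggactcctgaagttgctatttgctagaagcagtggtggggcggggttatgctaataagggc
Irf1: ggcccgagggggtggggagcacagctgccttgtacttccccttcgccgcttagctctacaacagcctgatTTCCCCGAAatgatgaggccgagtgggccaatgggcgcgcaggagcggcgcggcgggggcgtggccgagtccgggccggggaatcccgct

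**Figure D1:**
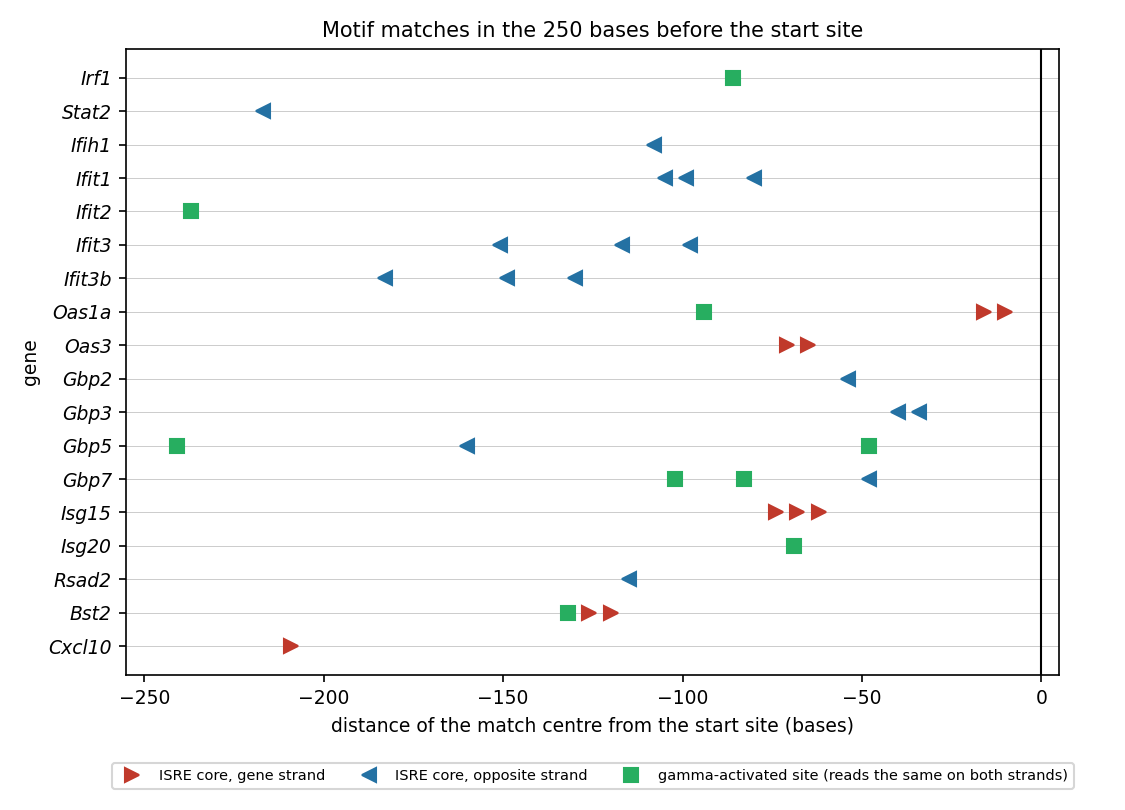
Position of each motif match before the start site, in bases from the start (x axis), for the members with a match (y axis), with triangles for the ISRE core by strand and squares for the gamma-activated site. Matches are drawn at their centres, and the first bases of the 27 ISRE core matches lie between 14 and 221 bases before the start, 12 of them within 100 bases.

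The members differed widely in level between cell classes. Levels are counts per 1000000 (CPM), the UMIs of a gene over all UMIs of that class and library. Over 12 combinations (epithelium and stroma in 3 libraries, macrophages and neutrophil clusters 0 and 2 in the injured ones), 12 of the 33 members were highest in saline neutrophils of cluster 2 and 9 in losartan macrophages, while 3 never reached 10 CPM (Gbp3, Cmpk2 and Ifi44). The summed level of the 33 members was 685, 713 and 429 CPM in uninjured, saline and losartan epithelium and 1007, 609 and 565 CPM in stroma. It was 1406 and 1969 CPM in saline and losartan macrophages and 1432 and 1098 CPM in neutrophils. As class totals, leukocytes of the injured cornea thus carried more of these transcripts per UMI than epithelium or stroma of the same library. Single clusters could differ from that order, as saline epithelium of cluster 9 had 1154 CPM and saline neutrophils of cluster 0 had 1146 CPM.

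By role, the signalling genes Irf1, Irf9 and Stat2 were present at 10 CPM or more in all 12 combinations. Irf1, a transcription factor that answers to interferon gamma and to inflammatory cytokines, ranged from 43.2 CPM in losartan macrophages to 265 CPM in saline neutrophils of cluster 0. Stat2, which joins Irf9 in the type I complex, lay between 10.1 CPM in losartan epithelium and 60.4 CPM in uninjured stroma. Irf7, which amplifies type I interferon production, was highest in macrophages, at 48.2 CPM in saline and 50.8 CPM in losartan cells. Among the sensors, Ddx58 (RIG-I) was at 10 CPM or more in all 12. Zbp1, a sensor of Z-form nucleic acid that can start necroptosis, stood at 51.1 CPM in saline macrophages, 2.65 CPM in uninjured epithelium and 2.63 CPM in uninjured stroma.

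The effectors were divided between classes. Isg15, a ubiquitin-like modifier, was highest in saline neutrophils of cluster 2, at 486 CPM, and lowest in saline stroma, at 7.0 CPM. Rsad2 (viperin), which makes a chain-terminating nucleotide, stood at 131 CPM in saline cluster 2 neutrophils, 29.8 CPM in saline macrophages and 0.886 CPM in saline epithelium. Isg20, an RNA exonuclease, was also highest there, at 151 CPM, with 6.48 CPM in saline macrophages and 6.63 CPM in saline epithelium. Bst2 (tetherin), which holds budding virus at the membrane, was a macrophage and stromal transcript, at 313 CPM in saline macrophages, 154 CPM in saline stroma and 13.5 CPM in saline epithelium. Oasl1, a member of the oligoadenylate synthetase family that restrains Irf7 translation in mice, was highest in epithelium, at 69.2 CPM in saline cells against 1.56 CPM in saline stroma. Ifit2 and Ifit3, which bind viral RNA, were highest in uninjured stroma, at 65.4 and 73.8 CPM. Levels are compared here for the same gene between classes, not between genes, since no transcript length enters them.

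The remaining members are given by their highest level over the same combinations. In the oligoadenylate synthetase family, which makes the activator of RNase L, Oas2 reached 35.7 CPM and Oas3 29.5 CPM in saline cluster 2 neutrophils, where Oasl2 reached 125 CPM, and Oas1a reached 27.8 CPM in losartan macrophages. Oas2 and Oas3 had 0 UMIs in uninjured stroma. Of the guanylate-binding proteins, Gbp2 and Gbp5 were highest in saline cluster 2, at 84.1 CPM and 14.3 CPM, and Gbp7 in losartan macrophages, at 29.96 CPM. In the Isg15 system Usp18 reached 25.0 CPM in saline cluster 2 and Herc6 27.4 CPM in losartan macrophages. Among the others Ifih1 reached 54.7 CPM and Xaf1 40.6 CPM in losartan macrophages. Ifi35 stayed between 17.4 and 51.0 CPM in all 12. Families thus had members with different leading classes.

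**Figure D2:**
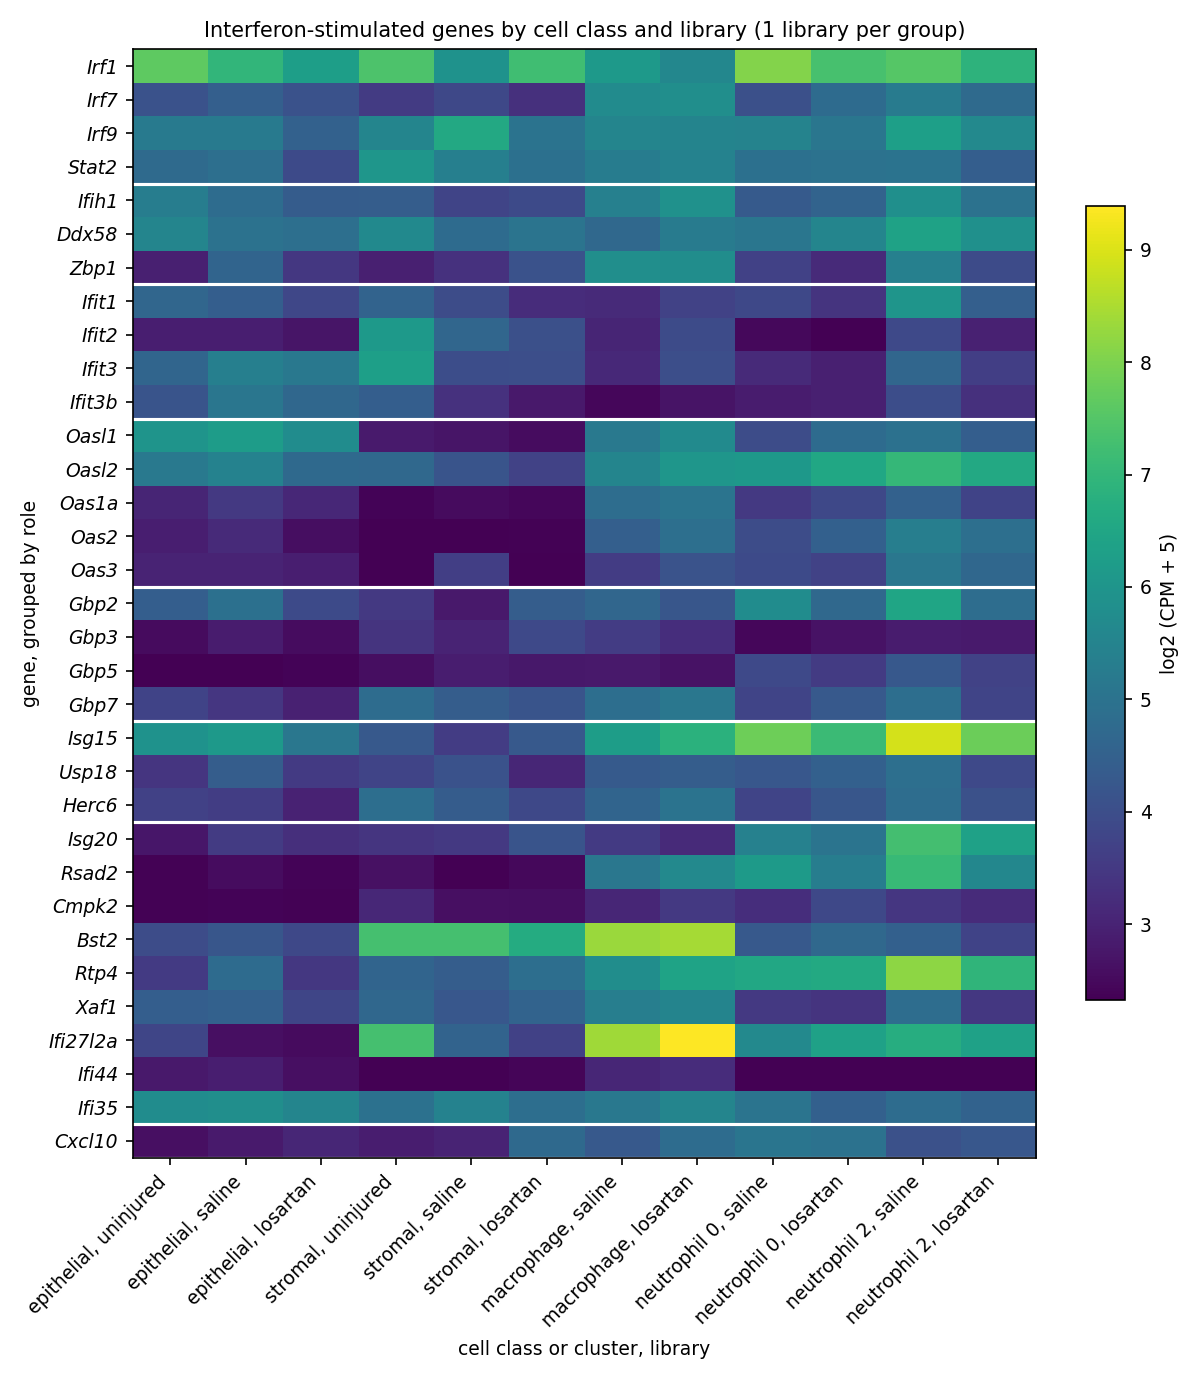
Level of each of the 33 members as log2 (CPM + 5) (colour) by cell class or cluster and library (columns), with genes in rows grouped by role and white lines between roles. Isg15 and Rtp4 are brightest in saline neutrophils of cluster 2, and Ifi27l2a and Bst2 in macrophages.

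Saline was set against uninjured epithelium to see these genes after NM with vehicle alone. Their cells lay in different clusters, the uninjured ones in clusters 1, 3, 4, 10, 12, 13, 14, 16, 17 and 25 but for 2 cells, and the saline ones in clusters 5, 9 and 11. The members' summed level differed little, at 713 against 685 CPM, a ratio of 1.04 (1.03 to 1.05). Single members differed more than that sum. A member or gene was counted as measured with a mean of 10 CPM or more over both libraries, and as higher or lower past 1.5-fold on the scale of CPM + 5. Of 19 measured members 5 were higher, where 18.8% of 8125 measured genes were, and 1 was lower, where 16.1% of genes were. The members' median log2 ratio was 0.23 and that of all measured genes 0.03.

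Zbp1 stood at 2.65 CPM in uninjured, 19.3 CPM in saline and 6.15 CPM in losartan epithelium, a ratio of saline to uninjured of 7.28 (6.43 to 8.26). Rtp4, an interferon-inducible chaperone of receptors, stood at 6.44, 22.7 and 6.05 CPM, a ratio of 3.52 (3.21 to 3.86). Usp18, the protease that removes Isg15 from proteins and damps the receptor, stood at 5.55, 16.3 and 6.45 CPM. For these genes the saline library was the high one. Ifit3 stood at 19.8, 36.7 and 30.7 CPM, and its near copy Ifit3b at 12.9, 29.2 and 20.6 CPM, with both injured libraries above the uninjured one. The member lower in saline was Irf1, at 193, 120.5 and 72.4 CPM, 1.60-fold lower (1.56 to 1.65). Isg15 at 56.2 and 66.1 CPM, Ifit1 at 20.03 and 16.8 CPM, Irf7 at 12.2 and 17.1 CPM and Stat2 at 22.1 and 24.6 CPM were within 1.5-fold.

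Within the uninjured epithelium the members were uneven. Cluster 14, 668 cells led by Asprv1, Psca, Muc4 and Krt13, had 1879 CPM over the 33 members (1859 to 1900.3), against 376 CPM (358 to 394) in cluster 17, 398 cells led by Krt15 and Gpha2, a gene of the limbal stem cell zone. In cluster 14 Isg15 stood at 222 CPM, Oasl1 at 330.3 CPM, Oasl2 at 161 CPM and Ifit3 at 109.7 CPM. In cluster 17 the same genes stood at 9.59, 1.78, 7.58 and 4.90 CPM. Several members had the other order, and some of them differed more than Stat2, which was at 16.7 CPM in cluster 14 and 24.1 CPM in cluster 17. Ifi27l2a was at 0.777 CPM in cluster 14 and 16.7 CPM in cluster 17, and Bst2 at 5.08 and 8.25 CPM. Ifit2 had 2 UMIs in cluster 14 and 37 UMIs in cluster 17. The higher sum of cluster 14 thus did not hold for every member. Cluster 14 was named corneal epithelial, with 13 corneal epithelial markers detected. Of its leading genes, Krt13 is a keratin of conjunctival epithelium, a tissue that per the labels was removed for the most part. In the injured libraries 1 cluster again stood highest. Cluster 9, led by Sprr1a, Krt16 and Krt6b, had 1154 CPM in 325 saline and 665 CPM in 658 losartan cells. Cluster 9 was named corneal epithelial. At a coarser clustering, a cluster led by Sprr1a and Krt16 held 458 saline and 825 losartan cells. That coarser cluster was named conjunctival or secretory epithelial, so the name of such cells depended on the clustering. Cluster 5, led by Krt14, had 274 CPM in 376 saline and 219 CPM in 866 losartan cells, and the shallow cluster 11 441 and 362 CPM. Clusters were formed on genes that could include the members, so these levels are a description of the clusters.

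**Figure D3:**
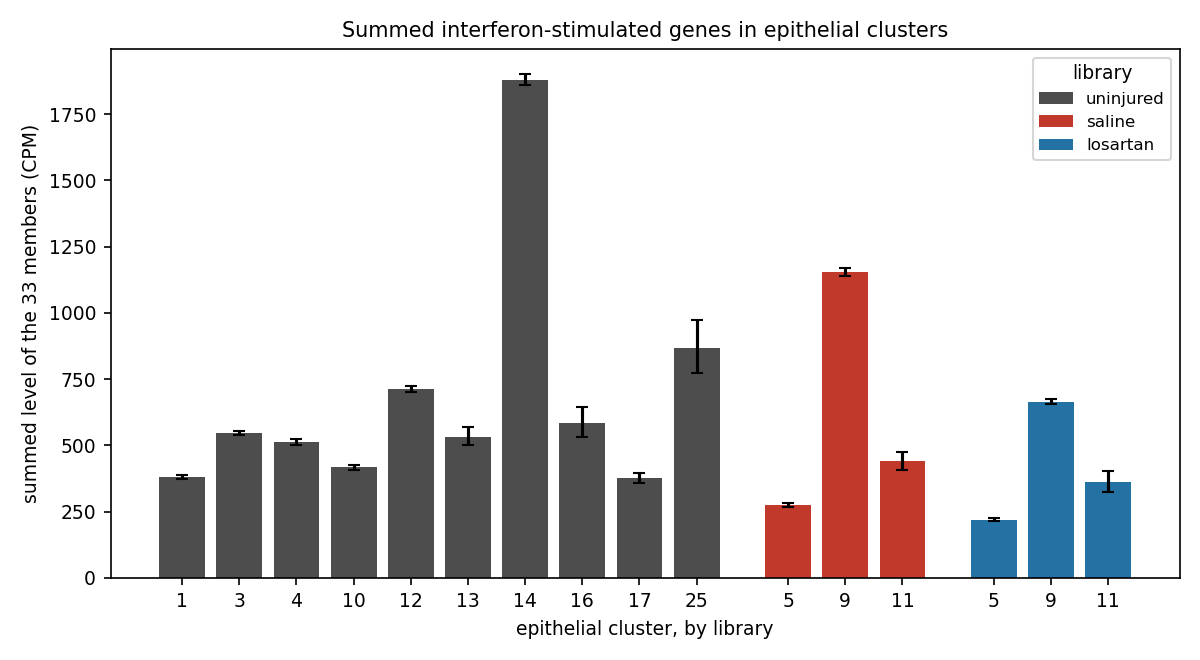
Summed level of the 33 members in CPM (y axis) in each epithelial cluster with at least 50 cells (x axis), by library, with exact Poisson 95% intervals as error bars. Cluster 14 of the uninjured library (1879 CPM) and cluster 9 of the saline library (1154 CPM) stand above the other clusters.

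Losartan was then set against saline epithelium, both after NM. The members were lower in the losartan library, at 429 against 713 CPM, a ratio of 0.602 (0.592 to 0.612). Of 19 measured members 0 were higher, where 1.78% of 7811 measured genes were, and 11 were lower, where 5.21% of genes were. The median log2 ratio of the members was −0.70, and that of all measured genes −0.08. The ratio was 0.576 (0.566 to 0.588) in cluster 9, 0.8003 (0.773 to 0.829) in cluster 5 and 0.821 (0.716 to 0.939) in cluster 11. The sum thus had the same direction in each injured cluster, but its size differed. The members' median log2 ratio was −0.76, −0.34 and −0.28 in clusters 9, 5 and 11, against −0.08, −0.10 and −0.09 over all measured genes. In cluster 5 most measured members were within 1.5-fold, and in cluster 11 members lay past 1.5-fold on both sides.

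Among members at a mean of 10 CPM or more Rtp4 and Zbp1 differed most, at 3.75-fold lower (3.32 to 4.25) and 3.14-fold lower (2.77 to 3.56). Gbp2, an interferon-inducible GTPase that acts on intracellular pathogens, stood at 16.6, 25.7 and 10.1 CPM in uninjured, saline and losartan epithelium, 2.54-fold lower (2.30 to 2.81) in losartan than saline cells. Isg15, at 29.8 against 66.1 CPM, was 2.22-fold lower (2.09 to 2.35). Stat2, at 10.1 against 24.6 CPM, was 2.44-fold lower (2.20 to 2.70), and its partner Irf9, at 32.9, 32.9 and 18.0 CPM, was 1.83-fold lower (1.69 to 1.98). In both Stat2 and Irf9 the losartan library lay below the uninjured one as well. Usp18 and Oasl2, the latter at 31.1, 38.9 and 21.4 CPM, were also lower, as were Xaf1, Irf1 and Ifit1. Ifit1, with the 3 reversed ISRE cores shown above, stood at 20.03, 16.8 and 9.15 CPM, and Irf7 was within 1.5-fold at 12.3 against 17.1 CPM. Within cluster 9 Isg15 was at 55.9 against 121 CPM, Rtp4 at 11.1 against 40.6 CPM and Stat2 at 10.7 against 31.2 CPM.

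The UMIs of a few deep cells weigh heavily in these sums. In saline epithelium 84 of 1172 cells held 50% of the members' UMIs and 37 cells 50% of those of Isg15, and in losartan epithelium these were 207 and 50 of 1892 cells. Markers of other cells differed between the libraries too. All 14 macrophage markers had UMIs in both injured epithelia, with a summed level of 417, 1850.3 and 1100.2 CPM in uninjured, saline and losartan epithelium. All 14 neutrophil markers had UMIs in both as well, at 6.14, 162 and 76.4 CPM, with Retnlg, Trem1 and Mmp8 at 0 in the uninjured library. Median depths were 12896, 14897 and 29470.5 UMIs. In saline neutrophils themselves the neutrophil markers summed to 38825 CPM. Rsad2 was at 84.4 CPM there and at 0.886 CPM in saline epithelium. The part of other cells' RNA and of depth in the result was not tested.

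Over the whole stromal class the members' summed level was lower in both injured libraries than in the uninjured one. It was 1007 CPM in uninjured, 609 CPM in saline and 565 CPM in losartan stroma. The ratio of saline to uninjured was 0.605 (0.570 to 0.641). Different clusters made up the class in each library, as given below. Of 19 measured members 1 was higher in saline, where 11.3% of 8943 measured genes were, and 10 were lower, where 32% of genes were. The median log2 ratio was below 0 over all measured stromal genes too, at −0.33, against −0.62 over members. With libraries scaled by the median of ratios, which takes out a shift of −0.39 (log2), 3 members were higher and 5 lower. The shares of genes given are without that scaling.

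Ifi27l2a, a small interferon-induced protein, stood at 153 CPM in uninjured, 18.7 CPM in saline and 7.78 CPM in losartan stroma, and was 8.19-fold lower (6.10 to 11.2) in saline. Ifit3 stood at 73.8, 10.9 and 11.2 CPM, 6.78-fold lower (4.597 to 10.4). Ifit2 stood at 65.4, 20.2 and 11.4 CPM and Ifit3b at 16.7, 5.06 and 1.99 CPM. For these 4 genes the uninjured stroma was the high library over the whole class. Within cluster 7 Ifi27l2a stood at 51.3, 20.6 and 14.2 CPM, Ifit3 at 51.3, 9.26 and 9.91 CPM and Ifit3b at 12.8, 3.60 and 4.25 CPM. Ifit2 stood there at 19.2, 22.6 and 28.3 CPM, so its uninjured level was not the high one. These uninjured values rest on 8, 8, 2 and 3 UMIs in 74 cells. Irf1 stood at 166, 56.0 and 143 CPM over the class, but at 160.2, 59.2 and 55.2 CPM within cluster 7, where losartan cells were as low as saline cells. Ddx58 was at 45.8, 22.6 and 28.1 CPM, Stat2 at 60.4, 36.6 and 25.4 CPM and Ifit1 at 18.9, 10.5 and 4.24 CPM. Isg15 had only 18 UMIs in saline stroma, 7.0 CPM against 14.8 CPM in uninjured stroma, where 3 cells held 50% of its UMIs. Irf9 was the member higher in saline, at 41.6, 91.4 and 26.98 CPM, and 4 saline cells held 50% of its UMIs. Within cluster 7 the injured libraries were the high ones for Irf9, at 19.2, 109 and 99.1 CPM, and for Bst2, at 57.7, 176 and 204 CPM. The uninjured values there rest on 3 and 9 UMIs.

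Between losartan and saline stroma the summed ratio was 0.927 (0.877 to 0.980). Of 16 measured members 3 were higher, where 30.8% of 8673 measured genes were, and 4 were lower, where 14.6% of genes were. The median log2 ratio was −0.34 over members and 0.26 over genes. With the median of ratios, a shift of 0.33 (log2), 2 members were higher and 8 lower, but the shares of genes are without that scaling. Cxcl10, a chemokine for activated T cells, was at 2.39, 3.11 and 21.4 CPM in uninjured, saline and losartan stroma, and 6 losartan cells held 50% of its UMIs. Irf1 had a ratio of losartan to saline of 2.56 (2.16 to 3.06). Isg15 was at 14.7 against 7.0 CPM. Irf9, Ifi27l2a, Bst2 and Ifit2 were the lower ones, with Bst2 at 154, 154 and 95.8 CPM. Different clusters made up these stromas. Cluster 19 held 300 of the 455 uninjured cells, cluster 7 685 of the 747 saline cells, and cluster 18, led by Dcn and Mmp3, 372 of the 829 losartan cells. Within cluster 7, which both injured libraries hold in number, the ratio of losartan to saline was 0.980 (0.875 to 1.10). There Irf1, Irf9, Bst2, Ifit2 and Ifi27l2a were each within 1.5-fold between losartan and saline cells, with Irf1 at 59.2 CPM in saline and 55.2 CPM in losartan cells, Irf9 at 109 and 99.1 CPM, Bst2 at 176 and 204 CPM and Ifit2 at 22.6 and 28.3 CPM. Cxcl10 had 7 saline and 0 losartan UMIs in cluster 7, and 247 of its 248 losartan UMIs lay in cluster 18. Median depths were 9849, 2749 and 5103 UMIs and median mitochondrial shares 1.82, 4.27 and 2.16%. Neutrophil markers summed to 28.4, 250.4 and 86.7 CPM (5, 13 and 13 of 14 with a UMI, Ly6g at 0 in each) and macrophage markers to 478, 384 and 772 CPM (10, 13 and 12 of 14, Ccr2 at 0 in each). Corneal epithelial markers summed to 5078, 1617 and 1119.6 CPM (13, 14 and 14 of 14, Krt17 at 0 in uninjured stroma), in the same order as the members' sum. Their part in the values was not tested.

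In macrophage-like cells the summed level of the members was higher in the losartan library, with few single members past 1.5-fold. It was 1969 against 1406 CPM, a ratio of 1.40 (1.36 to 1.44). Ifi27l2a alone gave 3057 of 9068 losartan and 3397 of 14541 saline UMIs of the members, at 329 CPM in saline and 664 CPM in losartan cells, a ratio of 2.02 (1.92 to 2.12). Rtp4 was at 50.6 and 81.0 CPM, a ratio of 1.60 (1.40 to 1.83). These were the 2 members higher by 1.5-fold of 23 measured, where 5.56% of 7592 measured genes were, and 0 were lower, where 4.43% of genes were. With the median of ratios 1 was higher and 1 lower. The members' median log2 ratio was 0.39 and that of all measured genes 0.06. Isg15 was at 71.4 and 109 CPM, Stat2 at 34.2 and 38.9 CPM and Irf7 at 48.2 and 50.8 CPM. Bst2, the other abundant member of these cells, was at 313 and 343 CPM. Irf1 and Gbp2 were on the other side of 1, at 65.6 and 43.2 CPM and at 20.1 and 13.5 CPM. The 18 uninjured cells of this class had 302 UMIs of the members in all and are not compared. Dendritic markers summed to 3931 CPM in saline and 5588 CPM in losartan macrophages (9 of 10 with a UMI in both, Xcr1 at 0), and neutrophil markers to 1377 and 761 CPM (13 of 14, Ly6g at 0). Their part in the difference was not tested.

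Neutrophil-like cells fell into clusters 0 and 2, which held them in unequal shares. Cluster 0, led by the chemokine genes Cxcl2, Ccl3 and Ccl4, had 2195 saline and 274 losartan cells, and cluster 2, led by S100a9 and S100a8, had 768 and 1094. Over both, the summed level was 1432 CPM in saline and 1098 CPM in losartan cells, a ratio of 0.767 (0.740 to 0.794). Of 24 measured members 0 were higher, where 12.2% of 5836 measured genes were, and 3 were lower, where 6.58% of genes were, and the medians were −0.29 for members and 0.08 for genes. The 3 were Gbp2, at 58.1 and 23.1 CPM, Rsad2, at 84.4 and 41.1 CPM, and Irf1, at 242 and 123 CPM in saline and losartan cells. Isg15 at 292 and 201 CPM, Ifit1 at 22.8 and 14.5 CPM, Stat2 at 25.8 and 18.6 CPM and Irf7 at 17.4 and 22.2 CPM were within 1.5-fold. With the median of ratios 5 members were lower.

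Within cluster 2 the difference was larger. There the members summed to 2229 CPM in saline and 1129 CPM in losartan cells, a ratio of 0.506 (0.486 to 0.528). Of 28 measured members 18 were lower, where 4.62% of 5521 measured genes were, and 0 were higher, where 22.1% of genes were. The median log2 ratio was −0.76 for members and 0.21 for genes. With the median of ratios, a shift of 0.20 (log2), 25 members were lower, but the 4.62% of genes is without that scaling. Isg15 stood at 486 CPM in saline and 218 CPM in losartan cells, 2.23-fold lower (2.03 to 2.45). Rtp4 stood at 287 and 117 CPM, 2.45-fold lower (2.16 to 2.79), and Rsad2 at 131 and 42.8 CPM, 3.06-fold lower (2.50 to 3.78). Gbp2 stood at 84.1 and 23.5 CPM, 3.58-fold lower (2.72 to 4.75), and Ifit1 at 59.7 and 16.8 CPM, 3.55-fold lower (2.57 to 4.98). By role, 3 of 4 signalling genes (Irf1, Irf9 and Stat2), 2 of 3 sensors (Zbp1 and Ifih1), the 2 measured Ifit genes, 1 of 5 genes of the OAS family, 2 of 3 Gbp genes, all 3 genes of the Isg15 system and 5 of 7 other effectors were lower. Zbp1 was at 37.0 and 10.2 CPM, Xaf1, a partner of an apoptosis inhibitor, at 23.7 and 5.97 CPM and Gbp7 at 24.3 and 8.77 CPM. Stat2 was at 27.3 and 16.5 CPM, and Irf7 within 1.5-fold at 33.4 and 22.1 CPM. In saline cells of this cluster 43 of 768 cells held 50% of the Isg15 UMIs, and in losartan cells 39 of 1094.

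In cluster 0 the members lay on both sides. The summed level was 1146 CPM in saline and 979 CPM in losartan cells, a ratio of 0.854 (0.791 to 0.921). Of 21 measured members 3 were higher, where 8.02% of 5888 measured genes were, and 4 were lower, where 10% of genes were. The median log2 ratio of the members, 0.24 against −0.03 for genes, had the opposite sign to their summed level. Lower were Gbp2, at 48.7 and 21.4 CPM in saline and losartan cells, Rsad2, at 67.7 and 34.8 CPM, Irf1, at 265 and 155 CPM, and Isg15, at 223 and 136 CPM. Higher were Oasl1, at 10.6 and 22.7 CPM, Irf7, at 11.6 and 22.7 CPM, and Ifi27l2a, at 45.3 and 77.6 CPM, on 17, 17 and 58 losartan UMIs. Stat2 was at 25.2 and 26.7 CPM. In neutrophils of both clusters together, corneal epithelial markers summed to 450.5 CPM in saline and 1728 CPM in losartan cells, all 14 with a UMI in both, and median depth was 3948 and 2606 UMIs. Macrophage markers summed to 278 and 258 CPM, all 14 with a UMI in both. The part of that RNA was not tested.

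**Figure D4:**
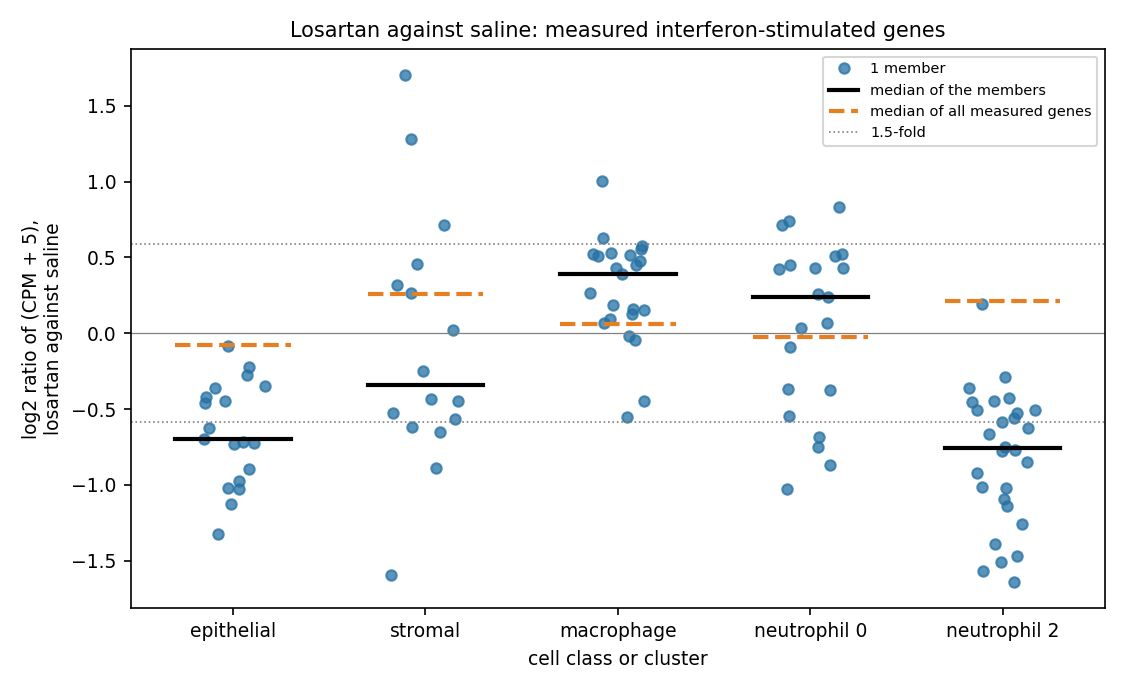
Log2 ratio of CPM + 5, losartan against saline (y axis), for each measured member (points) in 3 cell classes and both neutrophil clusters (x axis), with the median of the members (solid) and of all measured genes (dashed). In epithelium and in cluster 2 the members' median lies below that of all genes (−0.70 and −0.76), and in macrophages above it (0.39).

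A sum over cells cannot show whether many cells carry a little or few cells carry much. Each cell was therefore thinned to 1000 UMIs, and cells with at least 3 of the 33 members detected were counted, which left out shallower cells (from 0.391% in saline cluster 2 to 7.51% in saline epithelium). In epithelium the share was 3.42% (3.06 to 3.82, 315 of 9201 cells) in the uninjured, 5.17% (3.93 to 6.66, 56 of 1084 cells) in the saline and 1.80% (1.24 to 2.52, 33 of 1836 cells) in the losartan library. Averaged over 10 thinnings these shares were 3.20, 5.38 and 2.26%. At full depth they were 60.9, 55.4 and 67.2%, in cells whose median depth differed as well. Cluster 14 of the uninjured epithelium held 140 of its 315 cells with 3 or more members, a share of 21.0% (18.0 to 24.3, 140 of 666 cells). In cluster 9 the share was 14.2% (10.6 to 18.5, 46 of 324 cells) in saline and 3.95% (2.60 to 5.74, 26 of 658 cells) in losartan cells, and in cluster 5 it was 1 of 369 saline and 0 of 863 losartan cells, which allows up to 0.348% (3 cells).

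In stroma the share was 5.23% (3.34 to 7.74, 23 of 440 cells) in the uninjured, 1.36% (0.653 to 2.48, 10 of 736 cells) in the saline and 1.99% (1.14 to 3.22, 16 of 803 cells) in the losartan library, and over 10 thinnings 6.25, 2.02 and 1.63%, so the order of the injured libraries depended on the draw. At full depth it was 70.8, 15.7 and 45.8%. Macrophages had 12.4% (10.0 to 15.2, 81 of 651 cells) in the saline and 21.0% (17.1 to 25.3, 83 of 396 cells) in the losartan library, 13.9 and 20.2% over 10 thinnings and 83.3 and 84.7% at full depth. In neutrophils of cluster 2 the share was 22.5% (19.6 to 25.6, 172 of 765 cells) in saline and 8.50% (6.91 to 10.3, 92 of 1082 cells) in losartan cells, 21.8 and 9.18% over 10 thinnings and 52.9 and 23.3% at full depth. In cluster 0 it was 8.18% (7.06 to 9.41, 178 of 2176 cells) and 9.19% (6.04 to 13.3, 25 of 272 cells), with overlapping intervals, 8.82 and 7.5% over 10 thinnings and 31.8 and 21.9% at full depth. The orders of saline and losartan in epithelium, macrophages and cluster 2 match those of the summed levels.

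**Figure D5:**
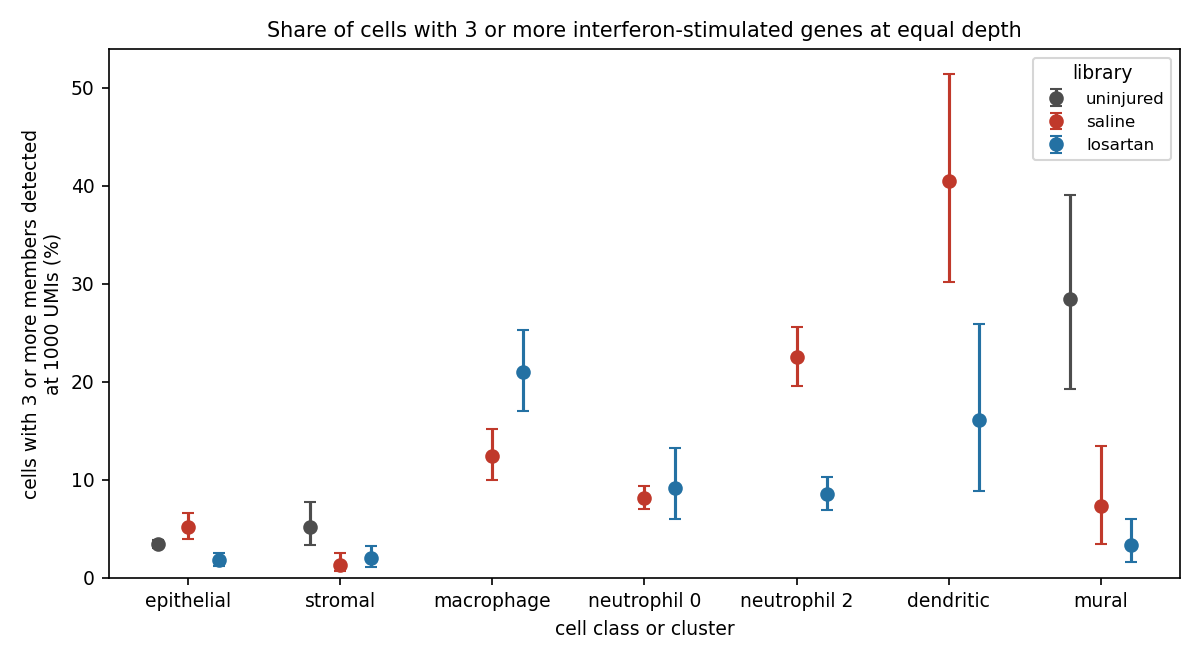
Share of cells with 3 or more members detected after thinning to 1000 UMIs (y axis, percent), by cell class or cluster (x axis) and library (colour), with exact Clopper-Pearson 95% intervals. Saline neutrophils of cluster 2 stand at 22.5% and losartan ones at 8.50%.

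Cells with a UMI of 1 member more often had a UMI of a given other member than cells without it, in the pairs described here. At 1000 UMIs in saline cluster 2, 24 of 30 cells with an Ifit1 UMI also had an Isg15 UMI (80.0%, 61.4 to 92.3), against 156 of 735 cells without one (21.2%, 18.3 to 24.4). For Rsad2, 33 of 44 cells with an Rsad2 UMI also had an Isg15 UMI (75.0%, 59.7 to 86.8), against 147 of 721 cells without one (20.4%, 17.5 to 23.5). Among pairs without Isg15 the shares were lower, and 8 of 44 cells with an Rsad2 UMI also had an Ifit1 UMI (18.2%, 8.19 to 32.7), against 22 of 721 cells without one (3.05%, 1.92 to 4.58). The same held in saline cells of both neutrophil clusters together, where 31 of 45 cells with an Ifit1 UMI also had an Isg15 UMI (68.9%, 53.4 to 81.8), against 408 of 2896 cells without one (14.1%, 12.8 to 15.4). For Ifit3 in these neutrophils, 13 of 17 cells with an Ifit3 UMI also had an Isg15 UMI (76.5%, 50.1 to 93.2). Of cells without one, 426 of 2924 had an Isg15 UMI (14.6%, 13.3 to 15.9). In epithelium the shares were lower both in cells with and in cells without an Ifit3 UMI. In uninjured epithelium 33 of 136 cells with an Ifit3 UMI also had an Isg15 UMI (24.3%, 17.3 to 32.4), against 312 of 9065 cells without one (3.44%, 3.08 to 3.84), and in saline epithelium 3 of 21 cells with an Ifit3 UMI also had an Isg15 UMI (14.3%, 3.05 to 36.3), against 57 of 1063 cells without one (5.36%, 4.09 to 6.89), with overlapping intervals in saline cells. Some other pairs did not have this order. In losartan epithelium 0 of 42 cells with an Ifit3 UMI had an Ifit1 UMI (0 to 8.41%), against 17 of 1794 cells without one (0.948%, 0.553 to 1.51). In saline macrophages 0 of 43 cells with an Isg15 UMI had an Ifit1 UMI (0 to 8.22%), against 1 of 608 cells without one. In saline cluster 2, 71 cells (9.28%) had 5 or more members and 1 cell had 15, whereas 28 losartan cells (2.59%) had 5 or more.

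Cells with 3 or more members were not made of the same genes in each class. In saline cluster 2 neutrophils 116 of 172 such cells had Isg15, 93 of 172 Rtp4 and 61 of 172 Isg20. In saline macrophages 52 of 81 had Ifi27l2a and 49 of 81 Bst2, but only 16 of 81 Isg15. In uninjured epithelium 144 of 315 had Irf1, 118 of 315 Isg15, 89 of 315 Oasl2 and 85 of 315 Oasl1, and in saline epithelium 38 of 56 had Irf1 and 17 of 56 Isg15. In uninjured stroma Bst2 (10 of 23), Ifi27l2a (8 of 23) and Ifit3 (8 of 23) led. Since these genes count among the 3, the shares describe the cells and are no comparison with the rest.

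Small classes had some of the highest levels. Dendritic-like cells summed to 2788 CPM in 89 saline and 1516 CPM in 82 losartan cells, with Isg15 at 402 and 161 CPM, Herc6, the mouse ligase for Isg15, at 125 and 54.0 CPM and Gbp5 at 73.3 and 12.8 CPM. Of these cells 40.4% (30.2 to 51.4, 36 of 89 cells) in the saline and 16.0% (8.83 to 25.9, 13 of 81 cells) in the losartan library had 3 or more members at 1000 UMIs. Mural cells, which wrap small vessels, summed to 3832 CPM in 88 uninjured, 1069 CPM in 128 saline and 590.4 CPM in 311 losartan cells, led by Irf1 at 1386, 91.7 and 84.6 CPM and Cxcl10 at 634, 92.4 and 33.2 CPM. The make-up of that cluster depended on the clustering. Trp53inp1, a p53 target, and Ddit4l were among its leading genes, and with the members and pathway genes kept out of clustering the mural cluster held 88 uninjured, 6 saline and 58 losartan cells, while a cluster led by Dcn that shared Trp53inp1 and Ddit4l held 154 saline and 345 losartan cells. Vascular endothelial cells had 3109 CPM in 57 uninjured and 727 CPM in 28 losartan cells, where 0 of 28 had 3 or more members, which allows up to 10.7% (3 cells), and 10 thinnings gave up to 7.14%. Schwann cells, the glia of corneal nerves, had 2073 CPM in 101 uninjured and 1266 CPM in 28 saline cells.

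Interferon transcripts themselves were almost not detected in any library. Ifnb1 had 0, 0 and 3 UMIs in uninjured, saline and losartan cells of all classes together, Ifng 0, 6 and 0 and Ifnk, an epithelial type I interferon, 3, 2 and 1. Ifna1, Ifna2, Ifna4, Ifna5 and Ifna12 had 0, which allows up to 3 UMIs in a library. Short-lived transcripts in few cells can be missed at this depth, and protein was not measured.

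The receptor and relay genes were compared within the same classes, as levels in the first against the second library. In epithelium 4 of 5 measured receptor genes were higher in saline than uninjured cells, where 18.8% of all measured genes were, with Ifngr1 at 219 against 88.4 CPM, Ifnar2 at 79.1 against 33.6 CPM and Ifngr2 at 92.8 against 44.8 CPM, while Ifnar1 was at 15.9 against 12.7 CPM. Jak1, at 178 against 311 CPM, and Irf3, at 14.9 against 25.5 CPM, 2 signal transducers, were lower. In losartan against saline epithelium Ifngr1 was at 126 against 219 CPM, Ifnar1 at 16.6 against 15.9 CPM and Ifnar2 at 87.7 against 79.1 CPM. In stroma 4 of 5 receptor genes were lower in saline than uninjured cells, where 32% of all measured genes were. Also 4 of 5 were higher in losartan than saline cells, where 30.8% of genes were. These stromal values are over the whole class, which was made up of different clusters in each library, as given above. In uninjured, saline and losartan stroma Ifnar2 stood at 121, 74.7 and 208 CPM, Ifnar1 at 35.1, 19.1 and 41.6 CPM and Ifngr1 at 55.4, 20.2 and 87.0 CPM. In macrophages 0 of 5 measured receptors were past 1.5-fold, with Ifnar1 at 143 against 144 CPM, Ifnar2 at 295 against 329 CPM and Ifngr1 at 229.7 against 188 CPM. In neutrophils of cluster 2 Ifngr1 was at 203 against 118 CPM, while Ifnar1 at 141 against 118 CPM and Ifnar2 at 320.0 against 238 CPM were within 1.5-fold.

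Other interferon-inducible genes outside the 35 did not simply follow them. In epithelium 13 of 22 measured were higher in saline than uninjured cells and 2 lower, where 18.8% and 16.1% of all genes were, with a median log2 ratio of 0.85. Ly6e stood at 1068 against 90.1 CPM, Ifitm3, a membrane restriction factor, at 673 against 66.7 CPM, Ifi205 at 37.0 against 0.627 CPM and Ifi209 at 105 against 14.4 CPM. In losartan against saline epithelium 0 were higher and 5 of 22 lower, where 5.21% of all genes were lower, with a median of −0.38, and of the genes tied to interferon gamma 2 of 5 were lower, Irgm1 at 3.34 against 21.8 CPM and Ifi47 at 3.50 against 20.7 CPM. In cluster 2 neutrophils 5 of 21 were lower and 1 higher in losartan cells, where 4.62% and 22.1% of all genes were. The balance was the other way in cluster 0, with 4 of 23 higher and 2 lower, where 8.02% and 10% of all genes were. It was so over both clusters as well, with 6 of 23 higher and 3 lower, where 12.2% and 6.58% of all genes were. Ifitm1 was at 2231 against 860.5 CPM over both clusters and at 2638 against 2147 CPM within cluster 2. The lower ones of cluster 2 included Samd9l at 84.2 against 177 CPM, Ifi204 at 106 against 199.96 CPM, Eif2ak2, the RNA-activated kinase PKR, at 25.3 against 51.0 CPM, and Tor3a at 13.7 against 26.3 CPM. In macrophages 3 of 31 were higher, where 5.56% of all genes were, Slfn5 at 144 against 79.6 CPM, Samd9l at 44.5 against 26.6 CPM and Ifitm2 at 1374 against 885 CPM, and 1 was lower, Ifi205 at 18.0 against 46.6 CPM. In stroma 5 of 16 were lower and 1 higher in saline than uninjured cells, where 32% of all measured genes were lower. Between losartan and saline stroma 7 of 15 were higher and 1 lower, where 30.8% of all measured genes were higher. Among negative regulators Socs3, a brake on cytokine receptors, was lower in saline than uninjured epithelium, at 72.1 against 371 CPM, and lower again in losartan cells, at 37.4 against 72.1 CPM. In stroma it stood at 101 against 298 CPM for saline against uninjured and at 219 against 101 CPM for losartan against saline. Socs1 in cluster 2 neutrophils was at 21.8 against 40.3 CPM. Among genes of the nucleic acid sensing pathways 0 of 3 measured in epithelium were past 1.5-fold in either comparison. In stroma 3 of 3 were higher in losartan than saline cells, where 30.8% of all genes were. They were Tmem173 (STING) at 18.0 against 4.28 CPM, Tbk1 at 42.4 against 17.9 CPM and Myd88 at 30.9 against 14.8 CPM. The stromal values of this paragraph are over the whole class, whose clusters differed between libraries.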

How the data were processed

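Counts are UMIs per gene and cell in 3 sparse matrices deposited by the authors, whose headers name Cell Ranger 8.0.0 (per the file headers). The genome build was GRCm38, per the submitters' processing notes. There were 32285 genes in each, and 13270, 6814 and 5887 barcodes with at least 500 UMIs (uninjured, saline, losartan). Cells with 500 or more genes and at most 20% mitochondrial UMIs were kept, and the highest doublet scores were removed at 0.8% per 1000 cells (1334, 334 and 243 cells). The rest were clustered by Leiden at resolution 0.8 (Python 3.11.15, NumPy 2.4.6, SciPy 1.17.1, scikit-learn 1.9.0, leidenalg 0.10.2) and named from markers. The naming limits (3 or more markers with a UMI in at least 10% of cells, a score gap of 0.12) were set after the clusters were seen.

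UMIs were summed per class and library and given as CPM of the class total, with exact Poisson intervals. Ratios have exact conditional binomial intervals, shares exact Clopper-Pearson intervals and differences of shares 95% intervals. Beside a share of 0 the limit given is 3 cells of the total. All intervals cover counting error only. Ratios of single genes and sums are of CPM. Calls past 1.5-fold use log2 of CPM + 5, which understates changes of low genes. The shares of all genes past 1.5-fold are without median-of-ratios scaling. In each class and comparison the members named are the 8 or fewer past 1.5-fold with the largest log2 ratio among those at a mean of 10 CPM or more, and always Isg15, Ifit1, Irf7 and Stat2. Of pathway lists at most 4 genes are named, and always Ifnb1, Ifng, Ifnar1, Ifnar2 and Ifngr1, and 1 gene of these lists is not reported here. Small classes and the levels by role were described outside this rule, with genes chosen after their values were seen. The members and lists were chosen with earlier results of these data known. Scripts were tested on simulated data. Alternatives changed the scaling, cell weights, filters, doublets, resolution, clustering genes, pseudocount, fold, thinning depth and number of members.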

Additional observations from a re-analysis of the deposited data

Results flagged for a closer look

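The summed level of the members differed in direction or size between cell classes under the same contrast. For saline against uninjured cells the ratio was 1.04 in epithelium, with Zbp1, Rtp4 and Usp18 higher. It was 0.605 over the whole stromal class, with Ifi27l2a, Ifit3 and Ifit2 lower. For losartan against saline cells it was 1.40 in macrophages, where Ifi27l2a and Rtp4 were higher. The same contrast gave 0.602 in epithelium, where Rtp4, Zbp1 and Isg15 were lower, 0.927 in stroma and 0.767 in neutrophils, where Gbp2, Rsad2 and Irf1 were lower. With 1 library per group the difference between classes was not tested.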

How the results depend on the processing

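The direction of the summed ratio held in every alternative run except in epithelium of saline against uninjured cells, where it passed below 1 with cells of 200 or more genes. Losartan against saline was lower in epithelium and neutrophil cluster 2 and higher in macrophages throughout. The difference in share of cells changed sign in epithelium (saline/uninjured) with 5 or more members required, and in stroma (losartan/saline) and cluster 0 with another seed and over 10 thinnings, an alternative chosen after seeing the data. With median-of-ratios scaling the summed ratio was 1.02 in epithelium (saline/uninjured), 0.637 in epithelium (losartan/saline), 0.790 in stroma (saline/uninjured), 0.739 in stroma (losartan/saline), 1.34 in macrophages, 0.726 in neutrophils and 0.440 in cluster 2. With every cell weighted the same the summed ratio was 0.679 in epithelium (losartan/saline), 0.682 in stroma (saline/uninjured), 0.862 in stroma (losartan/saline) and 1.46 in macrophages. With cells of 200 or more genes the summed ratio was 0.974 in epithelium (saline/uninjured), 0.636 in epithelium (losartan/saline) and 1.33 in macrophages. With doublets kept the summed ratio was 0.615 in epithelium (losartan/saline), 0.706 in stroma (saline/uninjured), 0.783 in stroma (losartan/saline) and 1.32 in macrophages. At resolution 0.4 the summed ratio was 0.996 in stroma (losartan/saline) and 1.17 in macrophages. With members and pathway genes kept out of clustering the summed ratio was 0.707 in stroma (saline/uninjured) and 0.771 in stroma (losartan/saline). With median-of-ratios scaling the members higher numbered 3 in stroma (saline/uninjured) and 1 in macrophages and the members lower numbered 5 in stroma (saline/uninjured), 8 in stroma (losartan/saline), 1 in macrophages and 5 in neutrophils. With a pseudocount of 1 the members higher numbered 5 in macrophages and 5 in cluster 0 and the members lower numbered 2 in epithelium (saline/uninjured), 7 in stroma (losartan/saline), 1 in macrophages and 5 in neutrophils. With no filter on level the members higher numbered 2 in stroma (saline/uninjured), 7 in stroma (losartan/saline) and 4 in macrophages and the members lower numbered 2 in epithelium (saline/uninjured) and 7 in stroma (losartan/saline). With 10 CPM or more in either library the members higher numbered 6 in stroma (losartan/saline) and 4 in macrophages. At 2-fold the members higher numbered 3 in epithelium (saline/uninjured), 1 in macrophages and 0 in cluster 0 and the members lower numbered 0 in epithelium (saline/uninjured), 4 in epithelium (losartan/saline), 5 in stroma (saline/uninjured), 1 in stroma (losartan/saline), 1 in neutrophils, 1 in cluster 0 and 10 in cluster 2. Thinned to 500 UMIs the difference in share was 0.350 in epithelium (saline/uninjured), −0.507 in epithelium (losartan/saline), −0.515 in stroma (saline/uninjured), 2.87 in macrophages and −5.85 in cluster 2 percentage points. Thinned to 2000 UMIs the difference in share was 4.02 in epithelium (saline/uninjured), −6.94 in epithelium (losartan/saline), −13.1 in stroma (saline/uninjured), 14.2 in macrophages and −17.7 in cluster 2 percentage points. With 2 or more members required the difference in share was −11.8 in stroma (saline/uninjured) percentage points. With 5 or more members required the difference in share was −0.0549 in epithelium (saline/uninjured), −0.260 in epithelium (losartan/saline), −0.455 in stroma (saline/uninjured), 1.75 in macrophages and −6.69 in cluster 2 percentage points. With another random seed the difference in share was −1.80 in epithelium (losartan/saline), −0.929 in stroma (losartan/saline) and −2.90 in cluster 0 percentage points. The cause was not tested. At resolution 0.4 the neutrophil clusters merged and gave no separate values. No paired analysis was possible because each group is 1 library, and no replicate could be left out. Depth limits Isg15 and Ifit genes in stroma and all genes of cluster 0 in losartan cells.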
